A study of Mus musculus with 4 samples.

Results

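The genes described here encode the enzymes of glycolysis, the pentose phosphate pathway and glycogen turnover, with the kinases that set phosphofructokinase and pyruvate dehydrogenase activity. They were chosen by name, and all 37 were found among the 24497 mouse rows of the expression table. Of these, 26 belong to glycolysis and its pyruvate branch, 7 to the pentose phosphate pathway and 4 to glycogen. RNA was sequenced from mouse leukaemic cells carrying the oncogenes NRAS and AE9a (a shortened form of the AML1-ETO fusion protein), made from bone marrow stem cells of either wild-type (WT) or Tet2 KO donors. Tet2 encodes a dioxygenase that oxidises methylated cytosine in DNA. Both groups were grown with SCF, IL-3 and IL-6, selected with G418 and puromycin, and transplanted into CD45.1+ B6.SJL recipients aged 6 to 8 weeks that had received 900 cGy. CD45.2 cells were then enriched from recipient spleens, so by their labels both groups carry the oncogenes and had the same handling. There are 2 WT libraries and 2 Tet2 KO-labelled libraries. The targeted allele, the promoters of the oncogenes and whether libraries came from separate mice are not given in the sources used here.

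Glycolysis splits glucose into pyruvate, which is reduced to lactate in the cytosol or oxidised in mitochondria after the pyruvate dehydrogenase complex has acted on it. The pentose phosphate pathway branches off after the hexokinase step and yields NADPH, which feeds the neutrophil oxidative burst and lipid synthesis, and ribose phosphate for nucleotides. Several steps can be run by more than 1 isoenzyme, with different affinity, tissue distribution and control. Glycogen is a branched glucose store, and mature neutrophils are known to build and draw on it.

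For the enzyme genes that changed most among those with a single start site in RefSeq, the 250 bases upstream of that site are shown, 5′ to 3′ on the gene's strand (RefSeq, GRCm38.p6, the build of mm10). Capitals mark matches, on either strand, to the letters searched. These were ACGTG, the core of the hypoxia response element, CACGTG, an E-box that overlaps it, TTGCNNAA, a C/EBP-like site, GAGGAA, a purine-rich PU.1-like site, and an interferon response element-like motif. The first 3 genes were higher in the Tet2 KO-labelled libraries and the last 3 were lower.
Pygl (chr12:70227684-70227933, minus strand): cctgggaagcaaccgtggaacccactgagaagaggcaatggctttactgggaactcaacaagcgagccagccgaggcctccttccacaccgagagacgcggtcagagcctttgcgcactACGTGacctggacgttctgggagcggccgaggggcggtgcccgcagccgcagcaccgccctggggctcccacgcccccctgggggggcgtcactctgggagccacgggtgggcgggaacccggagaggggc
Rpia (chr6:70792176-70792425, minus strand): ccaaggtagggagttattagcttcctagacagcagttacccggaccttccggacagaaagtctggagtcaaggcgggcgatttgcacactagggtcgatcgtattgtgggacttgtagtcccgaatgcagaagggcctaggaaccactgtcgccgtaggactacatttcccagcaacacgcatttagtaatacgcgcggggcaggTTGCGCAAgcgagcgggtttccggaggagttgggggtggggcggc
Pfkfb4 (chr9:108991652-108991901, plus strand): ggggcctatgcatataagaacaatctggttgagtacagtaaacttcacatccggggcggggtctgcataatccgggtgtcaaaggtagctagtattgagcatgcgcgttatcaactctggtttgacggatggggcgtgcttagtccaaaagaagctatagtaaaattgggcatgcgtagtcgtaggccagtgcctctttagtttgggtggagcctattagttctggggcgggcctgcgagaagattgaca
Pfkl (chr10:78009808-78010057, minus strand): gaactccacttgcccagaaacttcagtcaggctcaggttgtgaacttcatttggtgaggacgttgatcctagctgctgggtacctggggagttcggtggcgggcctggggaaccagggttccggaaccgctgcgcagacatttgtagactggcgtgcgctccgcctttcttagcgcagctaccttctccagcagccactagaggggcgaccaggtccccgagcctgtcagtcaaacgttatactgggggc
Eno2 (chr6:124769674-124769923, minus strand): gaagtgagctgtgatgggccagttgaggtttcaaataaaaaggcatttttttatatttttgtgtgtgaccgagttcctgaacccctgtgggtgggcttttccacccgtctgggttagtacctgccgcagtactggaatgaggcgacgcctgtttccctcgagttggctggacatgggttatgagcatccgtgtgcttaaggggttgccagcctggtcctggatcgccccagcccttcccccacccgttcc
Pgam1 (chr19:41911621-41911870, plus strand): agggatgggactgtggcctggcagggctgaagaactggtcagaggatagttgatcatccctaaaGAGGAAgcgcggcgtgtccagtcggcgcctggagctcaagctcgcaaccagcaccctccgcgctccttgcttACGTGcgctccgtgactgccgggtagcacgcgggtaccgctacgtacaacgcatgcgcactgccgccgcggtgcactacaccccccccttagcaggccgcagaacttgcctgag

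The match in Pygl is an ACGTG core that begins at position -131 from the start site, and that in Rpia is a C/EBP-like TTGCGCAA at -45. Pgam1 has an ACGTG core at -114 and GAGGAA at -186, while the windows of Pfkfb4, Pfkl and Eno2 hold none of these letters. The annotated Pygl gene reaches 3805 bases further upstream than the RefSeq start shown. All 37 genes had at least 1 RefSeq start, 56 in total. With any listed start counted, ACGTG was present upstream of 13 of the 37, against 25.3% of the 9116 tested genes with a RefSeq start. Counted in the same way it was present in 18.5% of all 27025 genes, and per single window in 16.6% of 32851. Those 13 included Aldoa, Ldha, Pgk1, Pkm, Pgam1 and Hk2. Among the carriers 2 genes were higher (Pfkfb3 and Pygl), 4 were lower and the other 7 did not pass the test. Over all genes tested 22.1% were higher and 26.7% lower, and a link between these letters and the direction of change was not tested. GAGGAA was present in 11 of 37 (26.3% of tested genes), TTGCNNAA in 6 (9.14%), CACGTG in 4 (10.1%) and the interferon response-like motif in 1 (3.39%). A match is a run of letters and not evidence of binding.

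Values are TPM, a transcript abundance scaled by transcript length and to the same total in every library. Depth, estimated from the steps between low values, was 18.6 to 23.5 M reads, where M stands for 10 to the power 6. The spread between both WT libraries was close to what read sampling gives, and they were counted as 1 sample (n = 1), against 2 Tet2 KO-labelled libraries (n = 2). Changes are on the log2(TPM + 1) scale with the standard error from limma, an adjusted p below 0.05 counts as passing, and levels in the Tet2 KO-labelled libraries are means ± SD (n = 2). Where 2 pairs of values are set against each other, the WT pair comes first. The Tet2 transcript stood at 43.5 and 43.7 TPM in the WT pair against 63.7 and 68.1 TPM, so the label is not borne out by a lower level, and a deletion inside the gene is not checked by this value. The groups also differed in sex-linked transcripts. Xist, expressed in female cells, was at 0.34 TPM in each WT library but at 86.0 and 28.2 TPM in the other pair, while the Y-linked Eif2s3y was at 107 and 107 TPM in the WT pair and at 29.8 and 90.4 TPM. Donor sex is not given in the labels used here, and sex content and the Tet2 label cannot be told apart. ERCC spike-ins, synthetic standard RNAs, took 4.66% and 4.62% of TPM in WT and 2.95% and 3.19% in the others, and scaling to them moved the median change of all genes by 0.55 on the log2 scale. The pan-leukocyte gene Ptprc was at 292 to 413 TPM in all 4 libraries. The myeloid integrin Itgam was at 148 and 150 TPM in the WT pair against 719 and 529 TPM. Of 2 progenitor genes, the receptor Kit was at 0.86 and 0.81 against 1.93 and 2.20 TPM, and Cd34 at 60.6 and 60.7 against 14.7 and 15.8 TPM.

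Cell type markers differed between the groups. Of 17 neutrophil markers, 16 were higher, with summed levels of 1729 and 1766 TPM in the WT pair against 107984 and 86926 TPM in the Tet2 KO-labelled libraries, and none was at 0. The 10 macrophage markers summed to 909 and 912 TPM in WT and to 162 and 185 TPM in the others, with 1 higher and 5 lower of 8 tested. The 8 dendritic markers summed to 432 and 436 against 63.7 and 44.4 TPM. Mast cell and basophil markers summed to 4.07 and 4.73 against 174 and 179 TPM, with 4 of 4 tested higher. Megakaryocyte markers summed to 2.44 and 1.96 against 13.3 and 19.2 TPM. Monocyte markers summed to 2311 and 2323 against 1699 and 1824 TPM, with 4 of 9 higher and 4 lower. Of 10 proliferation genes 7 were higher (643 and 647 against 848 and 1145 TPM). In bulk RNA, fewer cells of a type and less RNA per cell cannot be told apart. The part of these cell types in the changes below was not tested.

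The comparison asked which of these enzyme genes differ between leukaemic cells from Tet2 knockout and wild-type donors. In the Tet2 KO-labelled libraries, glycogen phosphorylase changed its dominant isoenzyme, from Pygb to Pygl, and Pygl went from 3.09 to 361 ± 144 TPM. Hk1 rose and Hk2 fell, while summed hexokinase was 383 TPM in WT and 398 ± 4.64 TPM, a ratio of 1.04 that became 1.57 with ERCC scaling. The PFKFB regulators Pfkfb4 and Pfkfb3 and the ribose phosphate isomerase Rpia rose, while both main phosphofructokinases, Pgam1 and the NADPH-producing G6pdx and Pgd fell. With ERCC scaling the fall of Pfkl still passed, but those of Hk2, Pfkp, Pgam1, G6pdx and Pgd did not. Of 35 genes tested, 7 were higher and 11 lower, and 17 did not pass. Over all 11919 genes tested, 22.1% were higher and 26.7% lower (48.8% in all), so the shares among these enzymes, 20% and 31.4%, lie near the background. Their median log2 change was -0.29, against -0.12 over all genes. With ERCC scaling 14 were higher and 3 lower (against 41.5% and 12.5% of all genes), at a median of 0.30 against 0.43 over all genes. None of the enzyme genes that passed changed sign under any of the 15 alternatives, but without the filter on low values Pfkfb4 alone among these enzymes still passed.

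**Figure D1:**
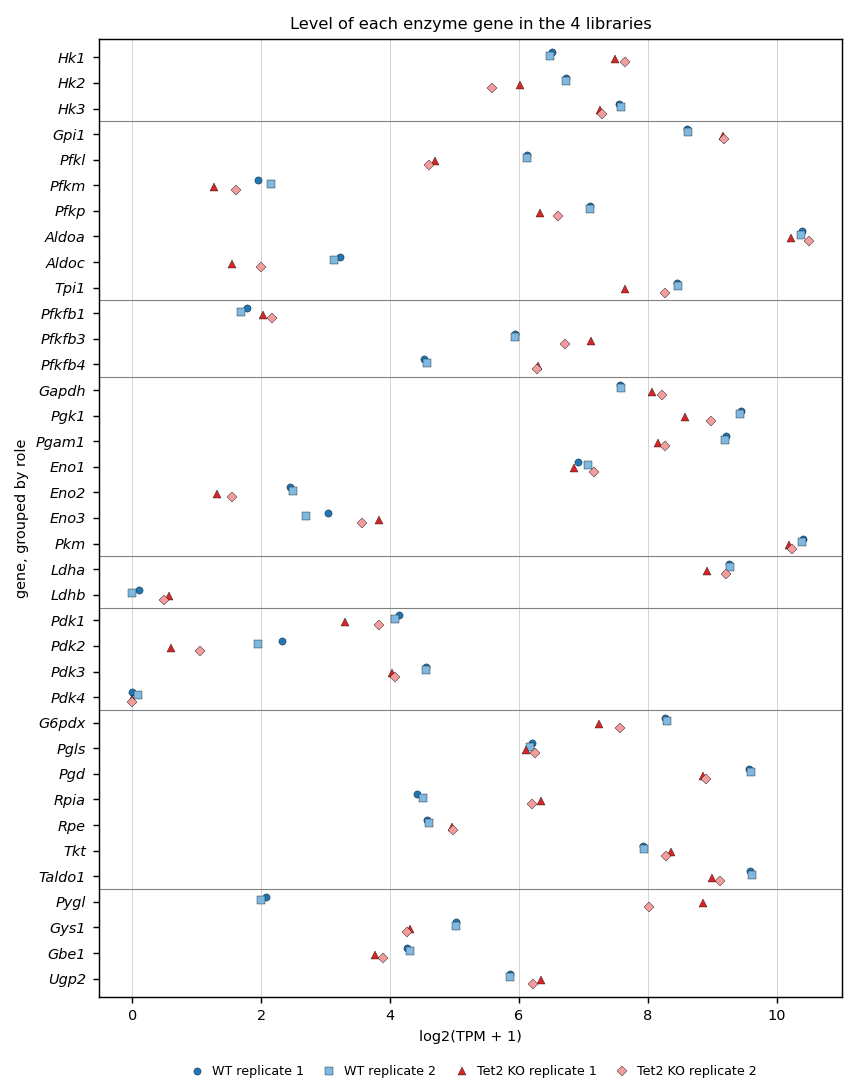
Level of each of the 37 enzyme genes as log2(TPM + 1), with 1 symbol for each of the 4 libraries and lines between functional groups. Pygl shows the widest gap, with WT at 3.20 and 2.98 TPM and the Tet2 KO-labelled libraries at 463 and 259 TPM.

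Hexokinases trap glucose in the cell by phosphorylating it. Hk1, the form of most tissues, which binds mitochondria (chromosome 10, 62268855 to 62379908, minus strand, GENCODE annotation of mm10, as for all gene positions given), stood at 90.0 and 88.4 TPM in the WT pair against 179 and 199 TPM in the Tet2 KO-labelled pair. Both of the latter were above both WT libraries, a rise of 1.08 ± 0.21 (limma adjusted p = 0.000511). Hk2, the insulin- and hypoxia-responsive form (chromosome 6, 82725025 to 82774454, minus strand), stood at 105 and 106 TPM in the WT pair against 63.5 and 46.9 TPM in the Tet2 KO-labelled pair. Here WT was the higher group without overlap, and the gene fell by 0.94 ± 0.21 (adjusted p = 0.00218). With ERCC scaling that fall did not pass (-0.35, adjusted p = 0.288). Hk3, a form found in myeloid cells, was at 187 and 190 against 152 and 155 TPM, a change of -0.29 ± 0.21 that did not pass (adjusted p = 0.258). It was 0.30 with ERCC scaling. Summed over the 3 genes, hexokinase stood at 383 and 384 TPM in the WT pair against 395 and 401 TPM in the Tet2 KO-labelled pair. Within that sum Hk1 held 23.5% and 23.0% in WT against 45.4% and 49.7%, and Hk2 27.5% and 27.5% against 16.1% and 11.7%. Hk3 was the largest hexokinase in WT, with 48.9% and 49.5% of the sum, and Hk1 in the others, where Hk3 held 38.6% and 38.6%. A share within a library does not depend on how libraries are scaled to each other, and an exact permutation test of 2 against 2 libraries cannot go below 0.333 (two-sided). An antisense transcript of this locus, Hk1os, was at 0.79 and 0.65 against 4.37 and 5.48 TPM. Without a statement that strand was used in counting, its reads and those of Hk1 cannot be told apart where they overlap.

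**Figure D2:**
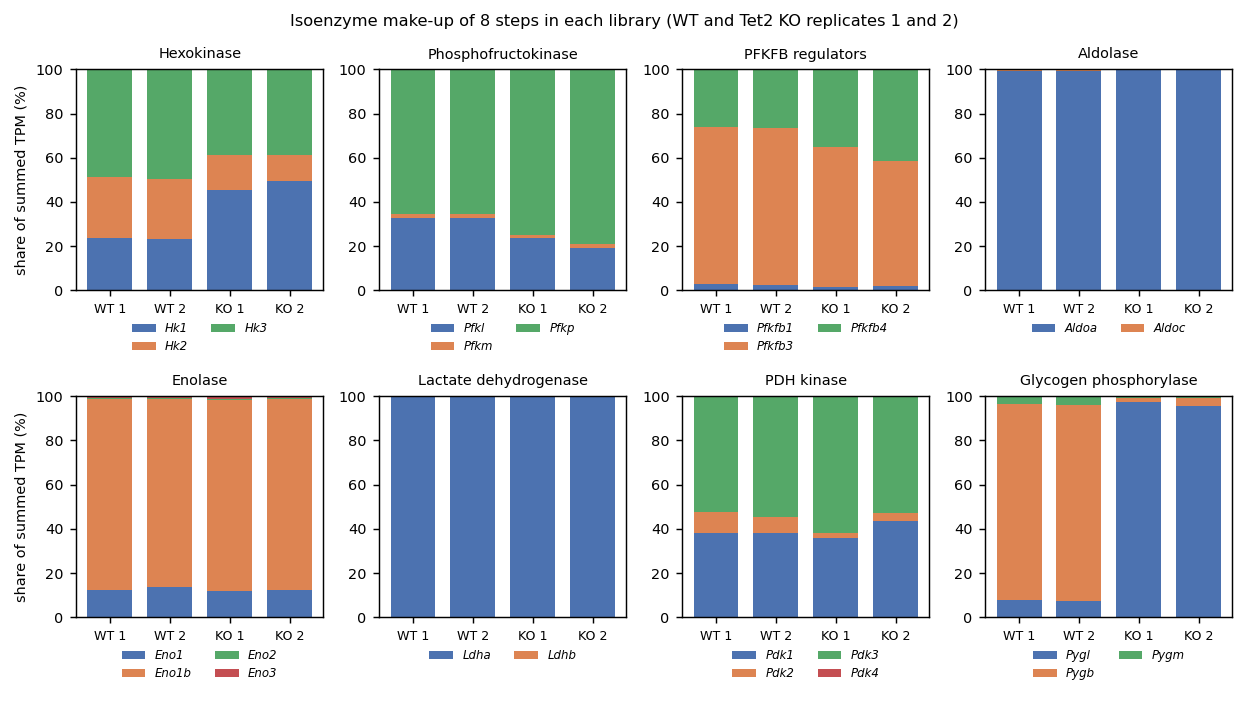
Share of the summed TPM of each step held by each isoenzyme, in percent, for the WT libraries (WT 1, WT 2) and the Tet2 KO-labelled ones (KO 1, KO 2). Glycogen phosphorylase went from 88.8% and 88.7% Pygb in WT to 97.4% and 95.8% Pygl, and Hk1 went from 23.5% and 23.0% to 45.4% and 49.7% of hexokinase, while aldolase stayed almost wholly Aldoa.

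Phosphofructokinase commits sugar phosphate to glycolysis, and its liver, muscle and platelet subunits form mixed tetramers. Pfkl, the liver subunit (chromosome 10, 77986947 to 78010083, minus strand), stood at 68.5 and 68.6 TPM in the WT pair against 25.1 and 23.4 TPM in the Tet2 KO-labelled pair. It was 2.83 times as high in WT and fell by 1.46 ± 0.20 (adjusted p = 2.30e-05), and by 0.88 with ERCC scaling, where it still passed. Pfkp, the platelet subunit, was the main subunit in every library, at 137 and 137 TPM in the WT pair against 79.7 and 96.0 TPM in the other pair. It fell by 0.64 ± 0.20 (adjusted p = 0.0167). That call ended under 4 scaling choices, with the change at -0.05 under ERCC scaling, and also without trend and robust estimation. Pfkm, the muscle subunit, was low, at 2.88 and 3.46 against 1.41 and 2.04 TPM, and did not pass (adjusted p = 0.088). The 3 subunits summed to 208 and 209 TPM in WT and to 106 and 121 TPM in the others, and the share of Pfkp went from 65.7% and 65.5% to 75.1% and 79.1%.

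The PFKFB enzymes make or remove the sugar bisphosphate that switches phosphofructokinase on, a different molecule from the product of that enzyme. Of the 3 listed here, 2 rose, against 22.1% of all genes higher, and 3 rose with ERCC scaling, against 41.5% of all genes. Pfkfb4 (chromosome 9, 108991778 to 109032228, plus strand) stood at 22.0 and 22.9 TPM in the WT pair against 77.3 and 76.5 TPM in the Tet2 KO-labelled pair. The groups lay far apart and the gene rose by 1.73 ± 0.19 (adjusted p = 1.57e-06). Pfkfb3, the form with the strongest kinase activity, was at 60.3 and 60.6 against 139 and 104 TPM and rose by 0.98 ± 0.22 (adjusted p = 0.00178). Pfkfb1 was low throughout, at 2.42 and 2.21 against 3.10 and 3.49 TPM (adjusted p = 0.318). It passed with ERCC scaling, at 0.81 (limma adjusted p = 0.0389). Pfkfb2, outside the 37 genes and named after its values were seen, was at 4.59 and 5.19 against 4.22 and 4.61 TPM (-0.12 ± 0.31, adjusted p = 0.766). Summed, Pfkfb1, Pfkfb3 and Pfkfb4 went from 84.8 and 85.7 TPM to 219 and 184 TPM, a ratio of 2.36 between the group means, whereas that of the phosphofructokinases was 0.546. With ERCC scaling the ratios were 3.59 and 0.824.

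Of the other 4 genes of upper glycolysis 1 fell and 0 rose, against 26.7% of all genes lower and 22.1% higher. Gpi1, which isomerises glucose phosphate to fructose phosphate, was at 392 and 393 against 572 and 580 TPM, without overlap, but its change of 0.55 ± 0.25 did not pass (adjusted p = 0.0749). It passed with ERCC scaling. Aldolase, which cleaves the bisphosphate that phosphofructokinase makes, was almost wholly Aldoa, at 1341 and 1331 TPM in the WT pair against 1201 and 1444 TPM in the other pair. The WT values lie between those of the other group. Aldoc, the brain form, was a small part of aldolase, at 8.35 and 7.79 against 1.92 and 3.01 TPM. It fell by 1.41 ± 0.32 (adjusted p = 0.00197) and still passed with ERCC scaling. Tpi1, which interconverts the triose phosphates, was at 349 and 353 TPM in WT and differed between the other libraries, at 200 and 307 TPM (adjusted p = 0.149). Its log2 change was -0.50 ± 0.27, and 0.10 with ERCC scaling.

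Among the enzymes of lower glycolysis, which recover ATP, Pgam1 changed most of the abundant ones in TPM, and Gapdh with ERCC scaling. Pgam1, phosphoglycerate mutase (chromosome 19, 41911923 to 41918660, plus strand), stood at 593 and 589 TPM in the WT pair against 285 and 308 TPM in the Tet2 KO-labelled pair. It fell by 0.99 ± 0.24 (adjusted p = 0.00256), a call lost with ERCC scaling (-0.40). Pgk1, phosphoglycerate kinase on the X chromosome, was at 701 and 689 against 383 and 507 TPM and fell by 0.66 ± 0.26 (adjusted p = 0.0496). The lower of its 2 values came from the library with the higher Xist. That library also held the lower value of the X-linked G6pdx, Pdk3 (15.3 against 15.9 TPM) and Pfkfb1 (3.10 against 3.49 TPM). Among genes that are not X-linked, it held the lower value of Tpi1, Ldha and Pdk1 and the higher value of Hk2, Pfkfb3 and Tkt. The part of sex in the change of Pgk1 was not tested. The call of Pgk1 sat at the threshold: it ended without WT replicate 1 and under 6 other alternatives, and the change was -0.06 with ERCC scaling. Gapdh, which oxidises glyceraldehyde phosphate, was at 189 and 191 against 266 and 297 TPM. It rose by 0.56 ± 0.22 (adjusted p = 0.0481), a call lost with quantile normalization and without trend and robust estimation. With ERCC scaling its rise was 1.16 and passed (limma adjusted p = 0.0058). Gapdh, like several enzymes of this chain, has processed pseudogenes that can share its reads, so its level is uncertain. Pkm, pyruvate kinase, was the most abundant of the 37 genes in the WT libraries, at 1356 and 1346 TPM against 1167 and 1215 TPM in the others. Its change was -0.18 ± 0.28 and did not pass (adjusted p = 0.612), and it was 0.41 with ERCC scaling. Its splice forms are not separated in this table.

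Enolase makes phosphoenolpyruvate. Eno1, the form of most tissues, was at 120 and 133 against 115 and 143 TPM, with overlapping groups (adjusted p = 0.950). It passed as higher with ERCC scaling, at 0.61 (limma adjusted p = 0.0443). Its close copy Eno1b was listed at 835 and 815 against 825 and 1018 TPM, and how the counting divided reads among both copies is not known. All 4 enolase genes together summed to 967 and 958 against 954 and 1174 TPM, with overlapping groups (ratio of group means 1.11, or 1.67 with ERCC scaling). The neuronal and muscle forms held no more than 1.38% of enolase transcripts each in any library. Eno2, the neuronal form, fell by 1.04 ± 0.29 (adjusted p = 0.00807), from 4.46 and 4.61 to 1.48 and 1.93 TPM, and did not pass with ERCC scaling (-0.61). Eno3, the muscle form, rose by 0.82 ± 0.29 (adjusted p = 0.0278), from 7.18 and 5.49 to 13.2 and 10.9 TPM, a call lost without WT replicate 2.

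The fate of pyruvate is set by lactate dehydrogenase and by the pyruvate dehydrogenase kinases. Ldha was at 613 and 617 against 485 and 595 TPM (-0.20 ± 0.26, adjusted p = 0.556, and 0.40 with ERCC scaling). Ldhb, the subunit of heart, was too low to test, at 0.08 and 0 TPM in the WT pair against 0.49 and 0.40 TPM in the other pair, and made up no more than 0.101% of lactate dehydrogenase transcripts in any library. The pyruvate dehydrogenase kinases, which switch the complex off, were low. Pdk3 and Pdk1 were the main forms, at 22.6 and 22.6 against 15.3 and 15.9 TPM (adjusted p = 0.0989) and at 16.6 and 15.9 against 8.87 and 13.2 TPM (adjusted p = 0.143). Their log2 changes of -0.51 and -0.54 became 0.06 and 0.01 with ERCC scaling. Pdk2 fell by 1.33 ± 0.28 (adjusted p = 0.00110), from 4.01 and 2.88 to 0.52 and 1.07 TPM, and still passed with ERCC scaling. Pdk4, the starvation-induced form, was at or below 0.06 TPM and was not tested.

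**Figure D3:**
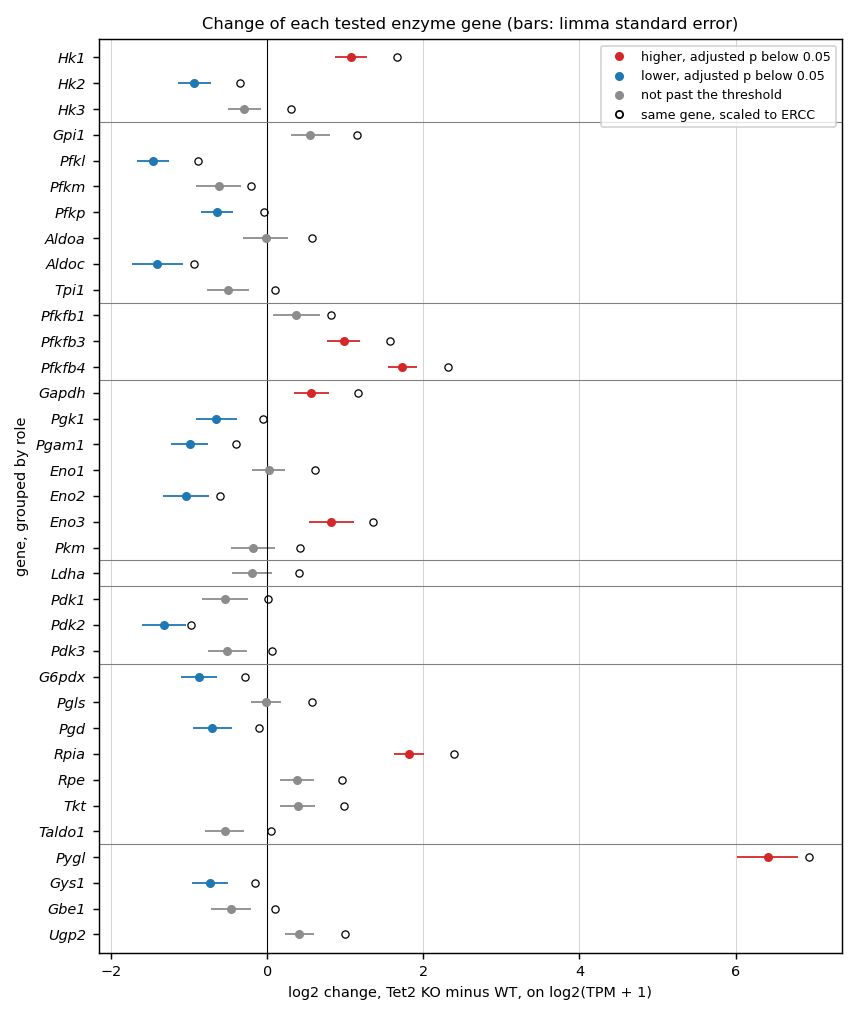
Change of each of the 35 tested enzyme genes, Tet2 KO-labelled libraries minus WT, on the log2(TPM + 1) scale, with the limma standard error as bars and open circles for the same gene scaled to ERCC spike-ins. Filled red and blue points mark the 7 higher and 11 lower genes. ERCC scaling moved every point to the right, and Pfkl, Aldoc and Pdk2 were the 3 that stayed past the threshold on the lower side.

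In the pentose phosphate pathway 2 of 3 oxidative enzymes fell and 1 of 4 non-oxidative enzymes rose, against 22.1% of all genes higher and 26.7% lower. With ERCC scaling the 7 genes gave 4 higher (Pgls, Rpia, Rpe and Tkt) and 0 lower calls, against 41.5% and 12.5% of all genes. The balance thus depends on the scaling. G6pdx, the X-linked enzyme that opens the NADPH-producing branch, stood at 306 and 315 TPM in the WT pair against 150 and 189 TPM in the Tet2 KO-labelled pair. It fell by 0.88 ± 0.23 (adjusted p = 0.00467), with its lower value in the library with the higher Xist. That library also held the lower value of the X-linked Pgk1, Pdk3 and Pfkfb1. On other chromosomes it held the lower value of some genes, such as Tpi1 and Ldha, and the higher value of others, such as Hk2 and Tkt. The part of sex was not tested. Pgd, the other NADPH-producing enzyme, was at 759 and 774 against 465 and 476 TPM, without overlap, and fell by 0.70 ± 0.25 (adjusted p = 0.0288). Pgls, the lactonase between them, was at 72.5 and 71.2 against 67.8 and 74.9 TPM, with WT inside the range of the others (adjusted p = 0.964). Neither fall passed with ERCC scaling (-0.28 for G6pdx and -0.11 for Pgd), where Pgls stood at 0.58, and that of Pgd also ended with median centring, quantile normalization and the total without the 20 most abundant genes.

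Rpia, which makes ribose phosphate (chromosome 6, 70765720 to 70792232, minus strand), stood at 20.3 and 21.8 TPM in the WT pair against 80.6 and 72.5 TPM in the Tet2 KO-labelled pair, a ratio of 3.64 between the group means and a rise of 1.81 ± 0.19 (adjusted p = 1.16e-06). Rpe, the epimerase acting on the same substrate, was at 22.7 and 23.3 against 30.1 and 30.5 TPM (0.38 ± 0.22, adjusted p = 0.157, and 0.96 with ERCC scaling, where it passed at 0.00507). Rpia and Rpe thus stood at similar TPM in WT and apart in the other libraries. Tkt, transketolase, was at 244 and 245 against 329 and 310 TPM (0.39 ± 0.23, adjusted p = 0.171, and 0.98 with ERCC scaling, where it passed at 0.0129). Taldo1, transaldolase, was at 768 and 785 against 509 and 556 TPM (-0.55 ± 0.25, adjusted p = 0.0874, and 0.05 with ERCC scaling). These last enzymes shuttle carbon back into glycolysis, and their groups did not overlap. The 7 genes summed to 2192 and 2235 TPM in WT and to 1632 and 1710 TPM in the others (ratio of group means 0.755, or 1.14 with ERCC scaling). The proliferation genes summed to 643 and 647 against 848 and 1145 TPM, and a link between these sums was not tested.

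Glycogen phosphorylase releases glucose phosphate from glycogen. Pygl, the liver form (chromosome 12, 70190811 to 70231488, minus strand), stood at 3.20 and 2.98 TPM in the WT pair against 463 and 259 TPM in the Tet2 KO-labelled ones. The latter lay well apart from each other, yet both were far above WT, and the rise was 6.41 ± 0.39 (adjusted p = 0.000331). It ranged from 5.99 to 6.93 over the alternatives and did not pass where low genes were kept in (adjusted p = 0.0995). Pygb, the brain form and not among the 37 genes, was at 36.2 and 36.2 against 9.51 and 9.69 TPM and fell by 1.81 ± 0.26 (adjusted p = 2.72e-05), a call that held under each of the 15 alternatives. Pygm, the muscle form, was at 1.35 and 1.65 against 2.81 and 1.77 TPM. Pygb therefore made up 88.8% and 88.7% of phosphorylase transcripts in WT and 2.00% and 3.58% in the others, where Pygl made up 97.4% and 95.8%. The phosphorylase step was chosen for this share after its values were seen. Of the 17 neutrophil markers 16 were higher in the same libraries, with sums of 107984 and 86926 TPM against 1729 and 1766 TPM in WT. Their link to the phosphorylase change was not tested.

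Of the 3 genes that build glycogen 1 fell and 2 did not pass, whereas with ERCC scaling 1 rose (Ugp2) and 0 fell. Over all genes 22.1% were higher and 26.7% lower, and 41.5% and 12.5% with ERCC scaling. Gys1, glycogen synthase (chromosome 7, 45434844 to 45456619, plus strand), was at 31.5 and 31.4 against 18.8 and 18.2 TPM and fell by 0.73 ± 0.23 (adjusted p = 0.0153). That call ended with ERCC scaling (-0.16) and with the total without the 20 most abundant genes. Gbe1, the branching enzyme, was at 18.3 and 18.8 against 12.6 and 13.8 TPM (-0.46 ± 0.26, adjusted p = 0.153, and 0.10 with ERCC scaling). Ugp2, which makes the UDP-glucose that glycogen synthase uses, was at 57.5 and 57.2 against 80.2 and 73.2 TPM (0.41 ± 0.19, adjusted p = 0.0844, and 1.00 with ERCC scaling, where it passed at 0.00645). With Pygl included, the 4 glycogen genes summed to 110 and 110 TPM in WT and to 574 and 365 TPM in the others. The 19 genes of the chain from hexokinase to lactate dehydrogenase summed to 6265 and 6254 against 5194 and 5934 TPM. Between group means that is a ratio of 0.889, which became 1.34 with ERCC scaling, so the direction of the chain as a whole depends on the scaling.

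Genes around these enzymes were read from 6 further lists, with 82 of 101 genes tested, 18 higher and 17 lower (22.0% and 20.7%, against 22.1% and 26.7% of all genes), at a median of -0.08. With ERCC scaling 33 were higher and 9 lower (against 41.5% and 12.5% of all genes), at a median of 0.49. Glucose enters through the SLC2A transporters. Slc2a3, the high-affinity transporter of neurons and leukocytes, was at 3.37 and 3.52 against 129 and 96.9 TPM and rose by 4.67 ± 0.22 (adjusted p = 4.02e-10). Slc2a1, the transporter of most cells, was at 177 and 174 against 168 and 177 TPM, with overlapping groups (adjusted p = 0.935). Slc2a6, a transporter of the lysosomal membrane, fell by 3.11 ± 0.20 (adjusted p = 3.75e-09), from 159 and 163 to 18.2 and 17.2 TPM. Slc2a8 fell by 0.78 ± 0.31 (adjusted p = 0.0473) from 5.05 and 4.22 to 1.83 and 2.78 TPM, a call lost under 9 alternatives, without WT replicate 1 among them. The lactate exporters Slc16a3 (159 and 154 against 199 and 203 TPM) and Slc16a1 (10.6 and 10.8 against 13.1 and 21.7 TPM) did not pass (adjusted p = 0.179 and 0.126). Both passed with ERCC scaling, at 0.95 and 1.16 (adjusted p = 0.0104 and 0.0178). Slc16a7, a related carrier, fell by 1.66 ± 0.24 (adjusted p = 3.13e-05) from 2.53 and 2.69 to 0.11 and 0.18 TPM. Of the 10 transport genes 1 was higher and 3 lower (10% and 30%, against 22.1% and 26.7% of all genes). With ERCC scaling these counts were 4 and 2 (against 41.5% and 12.5% of all genes).

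In the list of other glycolytic and gluconeogenic genes, 2 of 12 tested were higher and 3 lower (16.7% and 25%, against 22.1% and 26.7% of all genes). With ERCC scaling these counts were 4 and 1 (against 41.5% and 12.5% of all genes). Fbp1, which runs the phosphofructokinase step backwards, was at 1.05 and 1.54 against 76.4 and 88.9 TPM and rose by 5.18 ± 0.23 (adjusted p = 4.78e-11). Pck2, the mitochondrial phosphoenolpyruvate carboxykinase, was at 90.0 and 89.7 against 12.8 and 12.1 TPM and fell by 2.76 ± 0.22 (adjusted p = 5.94e-08). G6pc3, a glucose phosphatase named after its values were seen, did not pass (adjusted p = 0.365), and Pck1 and Fbp2 were too low to test. Gpd1, which links triose phosphate to glycerol, rose by 1.41 ± 0.38 from a low level (0.33 and 0.20 against 1.43 and 3.63 TPM, adjusted p = 0.0155), a call lost with quantile normalization, and Minpp1, an inositol and glycerate phosphatase, fell by 0.97 ± 0.27 (adjusted p = 0.00686), but not with ERCC scaling. Bpgm, known from red cells, fell by 0.84 ± 0.31 (adjusted p = 0.0341), but not with ERCC scaling, from 7.61 and 7.42 to 3.56 and 3.97 TPM. The erythroid markers summed to 4.33 and 2.57 against 29.5 and 54.3 TPM, with Hbb-bs at 0 throughout, and a link to Bpgm was not tested. At the mitochondrial entry of pyruvate 1 of 12 genes was higher and 3 lower (8.33% and 25%), and 3 and 1 with ERCC scaling, against the same shares of all genes. Mpc2, a subunit of the pyruvate carrier, rose by 0.69 ± 0.19 (adjusted p = 0.00674), and Pdp2, the phosphatase that switches pyruvate dehydrogenase on, fell by 2.34 ± 0.30 (adjusted p = 8.59e-06), from 24.3 and 23.8 to 3.75 and 4.13 TPM. The complex subunits Dlat and Dld fell by 0.76 ± 0.27 and 0.53 ± 0.20 (adjusted p = 0.0284 and 0.0350), but neither passed with ERCC scaling, where Dld turned to 0.06. Of the 7 other pentose phosphate genes tested, 0 passed limma's test, against 48.8% of all genes, and 0 had an unadjusted p under 0.05. With ERCC scaling 0 passed, against 41.5% of all genes higher and 12.5% lower. H6pd, which makes NADPH in the endoplasmic reticulum, was at 38.1 and 40.1 against 46.4 and 27.7 TPM and is named after its values were seen.

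Among the 20 other glycogen genes tested, 6 were higher and 4 lower (30% and 20%, against 22.1% and 26.7% of all genes). With ERCC scaling these counts were 9 and 2 (against 41.5% and 12.5% of all genes). Gyg, glycogenin, the protein primer on which glycogen is started, was at 19.2 and 20.4 against 75.8 and 72.8 TPM and rose by 1.86 ± 0.19 (adjusted p = 8.16e-07). Ppp1r3d, a subunit that brings protein phosphatase to glycogen, rose by 1.18 ± 0.31 (adjusted p = 0.00511), from 2.21 and 1.99 to 6.55 and 5.57 TPM. Phka1, a regulatory subunit of the kinase that switches phosphorylase on, fell by 1.38 ± 0.29 (adjusted p = 0.000990), from 5.52 and 5.15 to 1.24 and 1.63 TPM. Ugdh, which draws UDP-glucose away to glucuronate, rose by 0.80 ± 0.20 (adjusted p = 0.00329). Nhlrc1, which encodes malin, was low and fell by 0.81 ± 0.23 (adjusted p = 0.00973), but not with ERCC scaling.

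Of 21 tested regulators of this metabolism, 8 were higher and 4 lower (38.1% and 19.0%, against 22.1% and 26.7% of all genes). With ERCC scaling these counts were 13 and 3 (against 41.5% and 12.5% of all genes). Myc, a transcription factor known to raise glycolytic genes, was at 57.5 and 57.0 against 12.2 and 13.8 TPM and fell by 2.06 ± 0.23 (adjusted p = 2.73e-06). Mxi1, which competes with Myc for its partner, rose by 1.40 ± 0.19 (adjusted p = 1.63e-05). Hif1a, the oxygen-regulated factor of the hypoxia response, was at 182 and 184 against 138 and 135 TPM and did not pass (-0.42 ± 0.21, adjusted p = 0.107, and 0.18 with ERCC scaling). Egln3, a hydroxylase that marks HIF for destruction and is itself hypoxia-inducible, rose by 1.64 ± 0.25 (adjusted p = 5.62e-05), from 7.86 and 6.79 to 25.0 and 24.8 TPM. Arrdc4, a glucose-responsive arrestin, rose by 2.29 ± 0.26 (adjusted p = 2.53e-06), from 5.18 and 5.31 to 33.4 and 26.2 TPM. Its relative Txnip, named after its values were seen, was at 355 and 363 against 863 and 827 TPM and rose by 1.23 ± 0.25 (adjusted p = 0.000870). Keap1, which restrains the antioxidant factor NRF2, and Trp53 fell by 1.40 ± 0.21 and 1.34 ± 0.19 (adjusted p = 5.73e-05 and 2.84e-05).

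**Figure D4:**
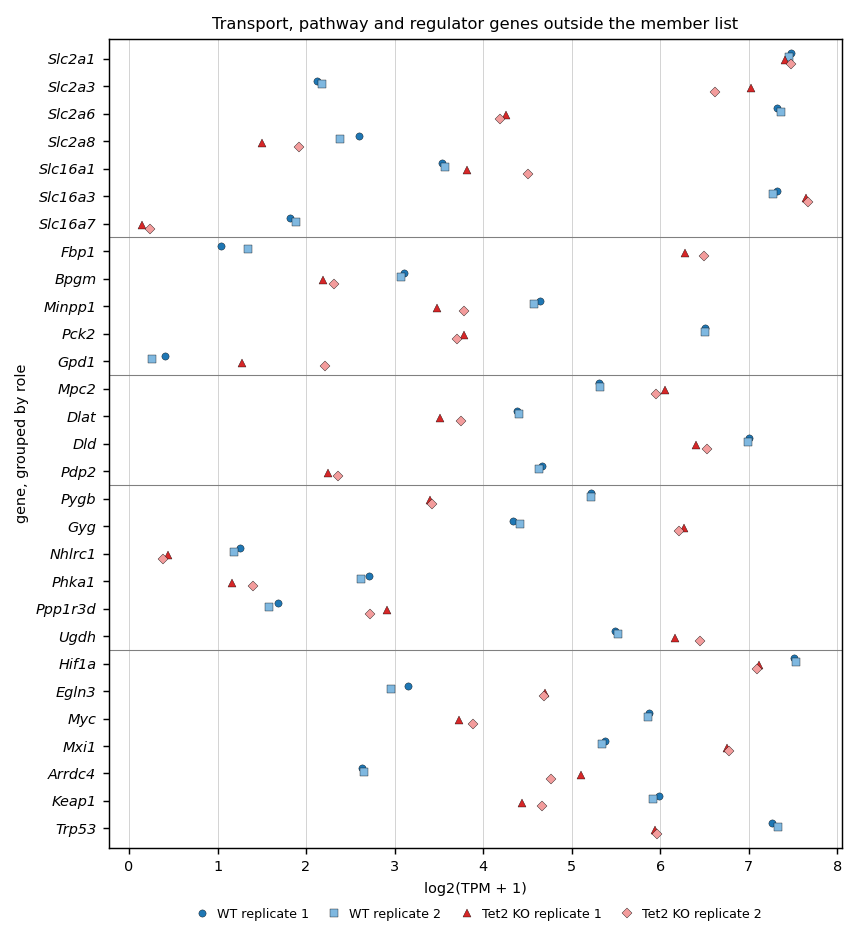
Level of transport, pathway and regulator genes outside the 37 enzymes as log2(TPM + 1), with 1 symbol for each of the 4 libraries. Slc2a3 and Fbp1 lie far to the right in the Tet2 KO-labelled libraries, at 129 and 96.9 TPM and at 76.4 and 88.9 TPM, while Slc2a6 and Pck2 lie to the left and Slc2a1 overlaps.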

How the data were processed

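The deposited table holds TPM made by the authors, with equal totals in the 4 libraries over 24589 rows. Per the submitters' processing notes, the tools were STAR and RSEM and the build mm10. The 92 ERCC rows were left out of tests. Members and gene lists were chosen with earlier results of these data known. GENCODE coordinates of mm10 matched 36 of the 37 genes.

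Depth was estimated from read steps in low values (80.7% to 82.3% within 0.2 of a whole multiple) and is approximate. The variance within WT was 1.15 times that expected from sampling of reads (1979 genes, robust), and 5.81 times within the Tet2 KO-labelled pair (2102 genes), so WT was averaged to 1 sample. Limma 3.58.1 (R 4.3.3) was run on log2(TPM + 1), with trend and robust estimation, on 11919 genes with at least 1 TPM in at least 2 libraries, two-sided, with Benjamini-Hochberg adjustment over all of them and a threshold of 0.05. Log2 changes of low genes are understated on this scale. With 1 residual degree of freedom the spread is that of the Tet2 KO-labelled pair, and WT is taken to vary alike; it may be technical. The fit was tested on simulated data.

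All members are named. Of the other lists, up to 3 genes per list and direction with the smallest p are named, plus Slc2a1, Slc2a3, Slc16a1, Slc16a3, Hif1a and Myc. Alternatives covered WT libraries as separate samples, a replicate block, pseudocounts of 0.1 and 0.5, filters, scaling, the variance model and each library left out.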

Additional observations from a re-analysis of the deposited data

How the results depend on the processing

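Fold changes in the TPM are relative to each library's total. Pseudocounts of 0.1 and 0.5 left the 7 higher and 11 lower enzyme genes as they were. With both WT libraries as samples, 11 were higher and 16 lower, and 3520 and 4517 of all 11919 genes tested, against 2629 and 3182 in the test reported. With the replicate block in that design 11 were higher and 17 lower (3495 and 4461 over all genes), although the replicate numbers are shared in the titles alone. The correlation of same-numbered deviations was -0.01 over 11919 genes. Since the WT libraries differ by about read sampling, this value cannot show whether libraries were paired. Without the filter on low values 1 was higher and 0 were lower (limma; 7 lower at an unadjusted p under 0.05), and over all 18594 genes then tested 123 were higher and 295 lower. With ERCC scaling 14 and 3 of these enzymes were higher and lower, and 4942 and 1492 of all genes (76.8% of calls higher, against 45.2%). With the total without the 20 most abundant genes 10 and 7 of these enzymes passed, and 57.3% of all calls were higher. Leaving out 1 library gave 6 to 13 higher and 10 to 21 lower enzyme genes, and 2651 to 4321 higher and 3192 to 5674 lower over all genes; the largest counts came without a library labelled Tet2 KO, where the WT libraries stood as separate samples since the averaged fit has no residual degree of freedom. The cause of these shifts was not tested beyond the change in genes or samples that each makes. Values that changed sign, all for genes that did not pass the test reported, were as follows. With ERCC scaling they were 0.30 for Hk3, 0.58 for Aldoa, 0.10 for Tpi1, 0.41 for Pkm, 0.40 for Ldha, 0.014 for Pdk1, 0.057 for Pdk3, 0.58 for Pgls (which then passed), 0.051 for Taldo1 and 0.10 for Gbe1. With median centring they were 0.078 for Aldoa and 0.086 for Pgls, with quantile normalization 0.42 for Aldoa and 0.22 for Pkm, and with the total without the 20 most abundant genes 0.17 for Aldoa, 0.011 for Pkm and 0.18 for Pgls. Without 1 library the log2 change of Aldoa ranged from -0.15 to 0.11, that of Eno1 from -0.14 to 0.18 and that of Pgls from -0.083 to 0.060. The filter of 5 TPM removed Pfkm, Pfkfb1, Eno2 and Pdk2 and left the other calls. At 18.6 to 23.5 M reads, levels near 1 TPM (Pdk2, Eno2, Pfkm) rest on few reads.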
